A study of Mus musculus with 14 samples.

Results

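The nuclear pore and nuclear transport genes described here were taken by symbol from RNA-seq counts of 56923 genes in mouse 2-cell embryos. The symbols were those of the Nup, Kpna, Kpnb, Ipo, Xpo and Tnpo series, together with Pom121, Ndc1, Rae1, Seh1l and Aaas, and 49 genes of the table carried them. Of these, 26 code for nucleoporins, the proteins that build the pore, and 23 code for transport receptors, which carry cargo through it. The rule uses symbols only.

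The nuclear pore complex spans the nuclear envelope as stacked rings. An outer ring is built from the Y complex, an inner ring holds the scaffold together, membrane nucleoporins anchor it, and a central channel is filled with flexible phenylalanine-glycine repeats, with filaments on the cytoplasmic face and a basket on the nuclear face. Importin alpha reads the nuclear localization signal of a cargo and binds importin beta, other importins and transportins bind their cargo directly, exportins carry proteins and RNAs outwards, and the small GTPase Ran gives the traffic its direction. The 2-cell mouse embryo begins with pores and receptors from the oocyte and turns on its own genome during this stage, in the burst called major zygotic genome activation (ZGA).

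The embryos were from ICR mice, and the 14 libraries were made from 5 embryos each, with 2 libraries in each of 7 groups. Early 2-cell embryos were collected at 30 h and late 2-cell embryos at 54 h after hCG. G&N embryos were cultured from the late 1-cell stage in mKSOM medium with 5 μM Gne140, an inhibitor of lactate dehydrogenase, 50 μM NMN, a precursor of NAD, and 10 mM lactate. The G&N-L embryos had the same medium without lactate, so the inhibitor and NMN are shared by both. G&N-L + Lac-CoA embryos were lactate-free embryos that had been injected as zygotes with 1 mM lactyl-CoA, the donor of the lactyl group in histone lactylation. G&N and G&N-L embryos were sequenced at both stages, the other groups at the late stage only. For the remaining pair, WT and H3K18R, zygotes were injected with mRNAs of wild-type histone H3.1, H3.2 and H3.3 or of the same with lysine 18 changed to arginine, a residue that cannot be lactylated, and these embryos still had their own H3. Their culture medium is not given in the sources used here. The H3.1 gene H3c1, which reads of injected mRNA could reach, had 43643 and 83390 counts in the H3K18R libraries but 4 and 3 in those labelled WT, where uninjected late G&N embryos had 6 and 2. The H3.3 genes H3f3a and H3f3b had 18695 and 27270, and 120117 and 164591 counts in the libraries labelled WT, beside 15468 and 24667, and 132575 and 205399 in late G&N. The H3K18R libraries had 18047 and 16850, and 110028 and 87314. Library totals were 22200357 and 32012136 under the label WT, 20350427 and 21215017 in H3K18R, and 33656717 and 44448857 in late G&N. Per library total, H3f3a was higher under both labels than in late G&N. H3f3b was higher under the label WT, and in H3K18R it overlapped with late G&N. Uninjected embryos also had many of these reads, so these genes cannot show an injection, and the source of the difference was not tested. An excess on H3c1 was thus seen under the label H3K18R and not under the label WT, and the latter libraries are named only as labelled WT. The treatment labels differ from the titles used here in 3 places. They name only the inhibitor for early G&N, do not mention the missing lactate for early G&N-L, and write CoA for Lac-CoA, while the count columns of the mutant carry the name K18A.

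The libraries held 20350427 to 61275465 counts. With 0 counts, up to 3 remain possible, or 0.049 to 0.147 CPM (counts scaled to the library size), and such limits cover counting error only. Maternal oocyte transcripts (15 genes, Zp3 and Gdf9 among them) summed to 36310 to 43020 CPM in early and 17800 to 33650 CPM in late libraries. The 11 transcripts known from the 2-cell stage summed to 540 to 783 CPM in early and 1480 to 4205 CPM in late libraries. These sums went with the stage labels, but single genes did not all follow. Per library total, Zp3 was higher in the H3K18R libraries and those labelled WT than in any early library. Tcstv1 of the 2-cell list was lower in them than in any early library. The 15 cumulus cell markers summed to 10.7 to 42.3 CPM, with 6 to 13 of them at 0 counts in a library, and the highest sum was in H3K18R replicate 1. In bulk RNA from whole embryos, fewer cells of a kind and less RNA per cell cannot be told apart. Nothing in the sources says that the 2 libraries of a group came from separate cultures, so the p-values measure only the spread between these libraries, which may be technical.

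The median level of the pore and transport genes was 22.6 to 50.1 CPM in a library, against 1.73 to 4.29 CPM for all genes with a count. The pore and transport genes are all protein-coding, the wider set was not limited to such genes, and CPM takes no account of gene length. These medians are therefore not a like comparison. Per kilobase of exon (RPKM), importin alpha Kpna2 was the highest at 229 to 593 RPKM over the 14 libraries. Nup37 of the outer ring reached 226 RPKM and the importin alpha genes Kpna3 and Kpna7 reached 200.2 and 175 RPKM, but Nup37 and Kpna7 had lowest values of 6.59 and 4.56 RPKM where Kpna3 had 56.7 RPKM. At the other end, the membrane nucleoporin Nup210 stayed at or below 0.14 RPKM and the importin Ipo13 at or below 0.80 RPKM, and both had 0 counts in at least 1 late library. Kpnb1, importin beta itself, ranged from 2.72 to 10.5 RPKM. Summed over the 26 nucleoporins, the level was 539 to 650 RPKM in early and 275 to 482 RPKM in late libraries, and these ranges did not overlap. Nup37 alone held 167 to 226 RPKM of the early sums and 6.59 to 34.6 RPKM of the late ones. Without Nup37 the ranges overlap, so the gap does not describe the nucleoporins as a class. Summed over the 6 exportins, it was 9.73 to 14.9 RPKM in early and 25 to 86.3 RPKM in late libraries, also without overlap. Xpo1 alone held much of the late sums, 137 of 277 CPM in late G&N-L replicate 1 and 669 of 774 CPM in replicate 1 of the libraries labelled WT. Xpo4, Xpo5 and Xpo7 overlapped between the stages, so this gap does not describe the exportins as a class. The importin alpha sum overlapped, at 481 to 668 RPKM early and 427 to 698 RPKM late.

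**Figure D1:**
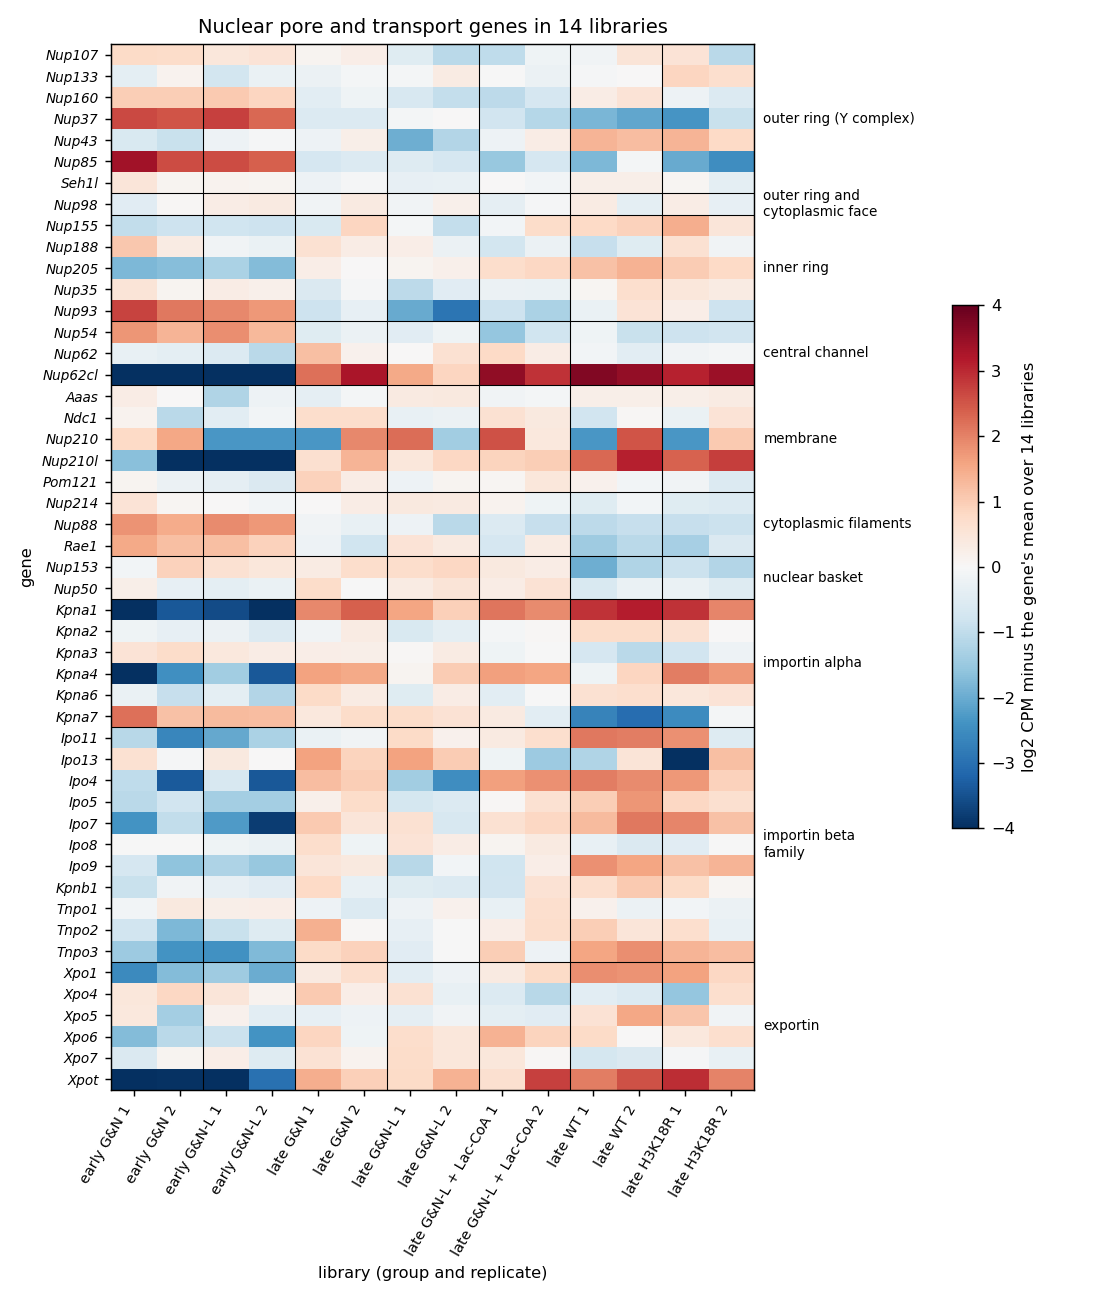
Level of the 49 genes (rows, grouped by role) in the 14 libraries (columns), as log2 CPM minus the mean of the gene over the libraries, with a colour scale that ends at 4 in either direction. Nup37, Nup85, Nup93, Nup54 and Nup88 are above their means in all 4 early libraries, and Nup62cl, Kpna1, Xpot and Xpo1 are below theirs.

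With lactate, nucleoporin genes of the 49 made up the falls between the early and the late 2-cell stage that passed the test. Receptor genes of the 49 made up most of the rises. The symbol rule left out other nucleoporin genes, of which Ranbp2 and Tpr rose and Sec13 fell, as given below. In G&N embryos, which had lactate, 12 of the 49 genes passed an adjusted p under 0.05 (edgeR's quasi-likelihood test with Benjamini-Hochberg adjustment over 19443 genes). In all, 7 nucleoporins fell, 1 nucleoporin rose, 4 receptors rose and 0 receptors fell. This split depended on the tool. DESeq2 also called the receptor Kpna7 lower (-1.12, adjusted p = 0.0116) and the nucleoporins Nup205, Nup210l, Nup43 and Nup62 higher, beside further receptors that were higher. Among all genes tested, 8.18% rose and 5.47% fell, against 5 and 7 of these 49. At an unadjusted p under 0.05 there were 24 of the 49, beside 34.4% of all genes, and with a log2 fold change beyond 0.5 as well 16 were higher and 8 lower, beside 19.8% and 14.6%. Both late libraries lay above both early ones for 24 and below them for 14, beside 35.7% and 28.9%. Over the 49 genes the median log2 fold change was 0.36, beside 0.08 over all genes tested, with -0.29 over the nucleoporins and 1.32 over the receptors.

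The Y complex of the outer ring held the steepest falls. Nup37, one of its smaller propeller subunits, was at 713 and 655 CPM in early G&N libraries and at 77.1 and 77.4 CPM in late ones. Its log2 fold change was -3.22 ± 0.24 (SE, adjusted p = 0.00607), a 9.31-fold fall. Nup85, a scaffold subunit of the same complex, was at 268 and 162 CPM early and at 16.4 and 17.9 CPM late. Neither gene came near an overlap of the stages, and Nup85 had the largest fall of the 49, at -3.70 ± 0.32 (adjusted p = 0.00626). Nup160, the large subunit at the hub of the Y, fell less, from 197 and 199 CPM to 75.1 and 88.5 CPM, with a log2 fold change of -1.35 ± 0.26 (adjusted p = 0.0307). The other 4 genes of the complex among the 49 did not pass: Nup107 had a log2 fold change of -0.65, Seh1l of -0.50, Nup133 of -0.15 and Nup43 of 0.71 (adjusted p of 0.136 to 0.887). The Y complex gene Sec13, outside the 49, fell and is given below.

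Single genes of the other modules fell as well. The inner-ring scaffold gene Nup93 was at 207 and 139 CPM early and at 18.1 and 25.5 CPM late, a log2 fold change of -3.05 ± 0.33 (adjusted p = 0.00935). Nup205, a large partner of Nup93 in the inner ring, had values on the opposite side, 5.96 and 6.39 CPM early and 25.5 and 21.1 CPM late, but did not pass (1.84 ± 0.46, adjusted p = 0.0548). Nup54, a subunit of the central channel, fell from 264 and 202 CPM to 56.4 and 67.1 CPM (-1.98 ± 0.26, adjusted p = 0.0132). On the cytoplasmic face, Nup88 fell from 118 and 96.1 CPM to 30.7 and 27.4 CPM (-1.94 ± 0.28, adjusted p = 0.016). The mRNA export factor Rae1 fell from 116 and 92.8 CPM to 34.6 and 23.1 CPM (-1.92 ± 0.33, adjusted p = 0.0247). In each of these 4 genes that fell, both late libraries were below both early ones. None of the 5 membrane nucleoporins and neither basket nucleoporin passed, and Nup153 of the basket, at 178 and 364 CPM early and 244 and 316 CPM late, had a log2 fold change of -0.07.

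Of the 26 nucleoporin genes, 1 rose, and it was nearly silent before. Nup62cl, an X-linked relative of the central channel gene Nup62, had 82 and 0 counts in early G&N libraries and 4599 and 11472 counts in late ones, or 1.61 and 0 CPM against 126 and 263 CPM. The log2 fold change was 7.90 with a wide SE of 1.60 (adjusted p = 0.0355). Nup62 itself was at 51 and 47.5 CPM early and at 145 and 70.6 CPM late and did not pass (1.06, adjusted p = 0.138).

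Among the receptors, the 4 that rose carry different cargo. Xpo1, the main exportin for proteins with a leucine-rich export signal, was at 31.2 and 55.1 CPM in early and at 234 and 290 CPM in late G&N libraries, a log2 fold change of 2.50 ± 0.42 (adjusted p = 0.023). Xpot, the exportin for tRNA, had 7 and 9 counts in early libraries and 398 and 339 counts in late ones (5.66 ± 0.90, adjusted p = 0.0203). Tnpo3, which imports serine-arginine-rich splicing factors, rose from 6.2 and 3.23 CPM to 29.2 and 32.5 CPM (2.67 ± 0.48, adjusted p = 0.0271). Importin alpha Kpna4 rose from 0.196 and 1.16 CPM to 20.7 and 19.2 CPM (4.74 ± 1.05, adjusted p = 0.0434). All 4 were clear of overlap between the stages. Of the 11 import receptors of the importin beta family, 10 had a log2 fold change above 0, with a median of 1.46, while 1 of them, Tnpo3, passed. Kpnb1 was at 18.7 and 31.7 CPM early and at 60 and 28.3 CPM late (0.71, adjusted p = 0.434).

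**Figure D2:**
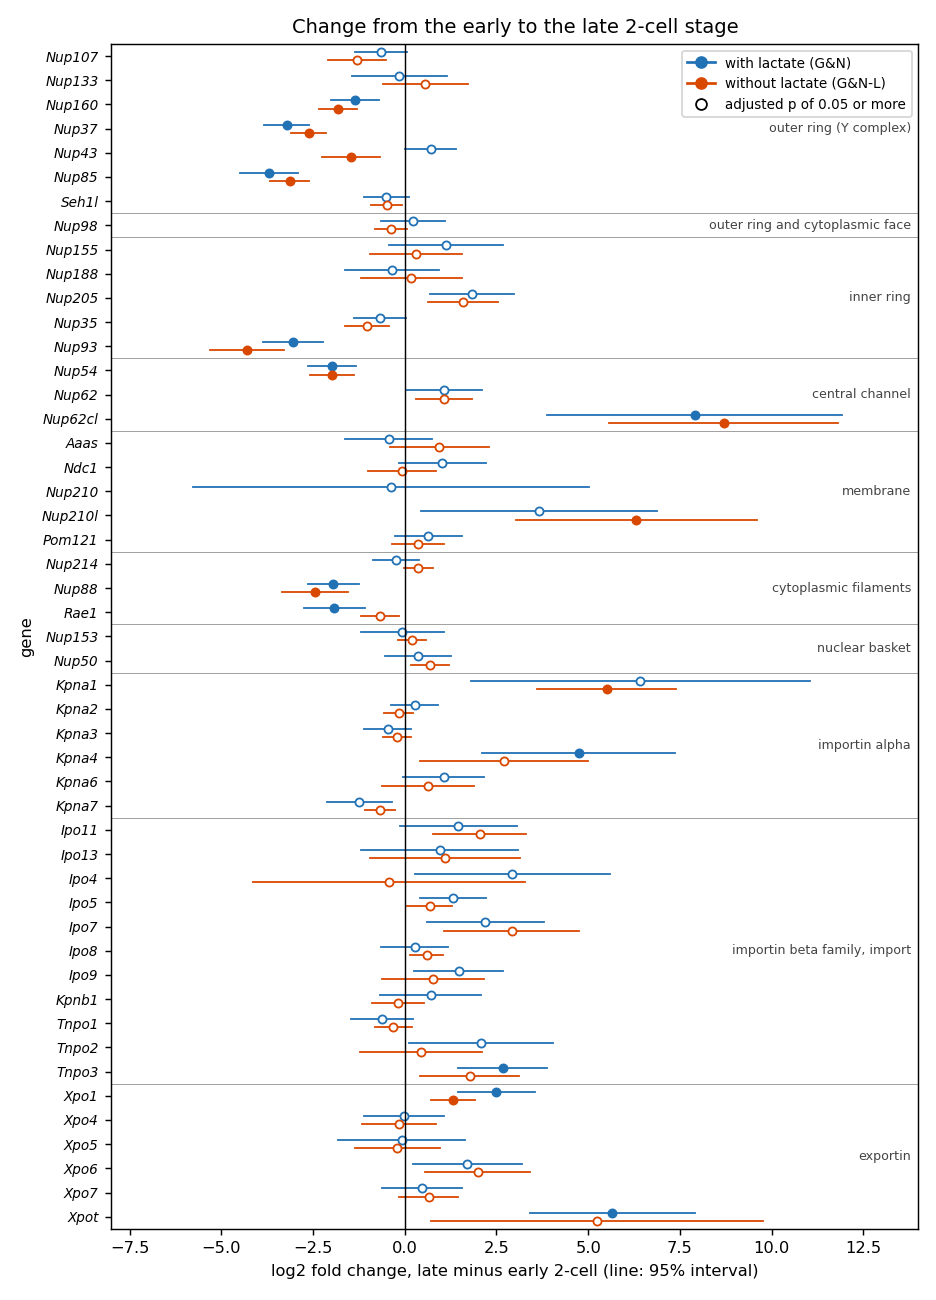
Log2 fold change from the early to the late 2-cell stage for each gene (rows, grouped by role), with lactate in blue and without lactate in orange, lines giving the 95% interval and open symbols an adjusted p of 0.05 or more. Filled symbols left of 0 are nucleoporins, and filled symbols right of 0 are receptors apart from Nup62cl and Nup210l.

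The same stages were compared without lactate. In G&N-L embryos 11 of the 48 genes tested passed, 4 upwards and 7 downwards, beside 5.97% and 5.87% of all genes. An unadjusted p under 0.05 was reached by 27, beside 32.5%, and the looser criterion with a log2 fold change beyond 0.5 by 15 upwards and 11 downwards, beside 19% and 13.2%. Both late libraries were above both early ones for 24 and below for 15, beside 36.4% and 26.1%. All 7 that fell were nucleoporins, and the 4 that rose were 2 nucleoporins and 2 receptors. Of the calls in G&N embryos 66.7% and of those in G&N-L embryos 72.7% were shared, 8 genes in all, and each had the same direction in both (Nup160, Nup37, Nup54, Nup85, Nup88, Nup93, Nup62cl and Xpo1). No library entered both comparisons. Over the 48 genes, 37 had the same sign.

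Nup37 was at 757 and 561 CPM in early and at 107 and 116 CPM in late G&N-L libraries, a fall of 2.62 ± 0.19 on the log2 scale (adjusted p = 0.00521). Nup93 fell from 121 and 107 CPM to 7.9 and 4.12 CPM (-4.30 ± 0.40, adjusted p = 0.00779), the largest fall of the genes here. Its late G&N-L levels were also below all other late libraries. Nup85 (-3.14, adjusted p = 0.00489), Nup160 (-1.81, adjusted p = 0.0108), Nup54 (-1.97, adjusted p = 0.0127) and Nup88 (-2.44, adjusted p = 0.0193) also fell. Xpo1 rose from 68.3 and 46.3 CPM to 137 and 160 CPM (1.32 ± 0.23, adjusted p = 0.0301), and Nup62cl from 0 and 0.363 CPM to 78.9 and 50.2 CPM (8.70 ± 1.22, adjusted p = 0.018).

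In all, 3 genes passed without lactate only, Kpna1, Nup210l and Nup43, and 4 with lactate only, Kpna4, Rae1, Tnpo3 and Xpot. Kpna1, an importin alpha, was at 2.77 and 0.635 CPM in early and at 99 and 64.8 CPM in late G&N-L libraries (5.51 ± 0.74, adjusted p = 0.0164). In G&N embryos it was at 0 and 3.16 CPM and at 128 and 176 CPM, with a similar log2 fold change of 6.42 but a larger SE of 1.84 (adjusted p = 0.0697). The Nup210 relative Nup210l had 1 and 2 counts in early and 160 and 209 counts in late G&N-L libraries. Per library total this was a ratio of 124.5 (95% exact interval 42.3 to 607 for counting error only, adjusted p of the fit 0.042). Nup210, not tested, had 0 and 0 counts early and 49 and 2 late. With the counts of both late libraries pooled and a floor of 3 counts set over the early group, this was at least 17.2-fold per library total. That bound rests on late replicate 1 and does not cover the spread between libraries. Passing in one medium only does not show a difference between the media, and the interaction given with Nup43 found none among these genes by edgeR.

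These calls rested on both late libraries, as fewer genes passed with either one left out. With late G&N replicate 1 left out, fewer genes passed over the whole table too. In G&N-L embryos only falls still passed without either late library. With any 1 library left out, the genes called kept their direction. Nup37 lay at -3.24 to -3.14 in G&N and -2.79 to -2.45 in G&N-L embryos. Xpo1 lay at 2.19 to 3.12 and 1.09 to 1.56. The balance of calls also moved with the scaling. Scaled by library totals, 8 rose and 5 fell in G&N embryos, beside 10.3% and 3.18% of all genes, and 11 rose and 6 fell in G&N-L embryos, beside 9.78% and 3.68%. DESeq2 gave 16 and 8 in G&N embryos, beside 18.6% and 11.9%, and 16 and 11 in G&N-L embryos, beside 16.7% and 11.2%. Library totals raised the median over all genes by 0.38 in G&N and 0.37 in G&N-L embryos.

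Across all 14 libraries, the 4 early and the 10 late libraries did not overlap for 21 genes, with late libraries higher for 13 and lower for 8. Of 25041 genes, 11.8% were higher in this way and 8.54% lower. The 8 with lower late levels were Nup160, Nup37, Nup85, Nup93, Nup54, Nup88, Rae1 and Kpna7. The 13 with higher late levels held 10 receptors, Kpna1, Kpna4, Ipo11, Ipo5, Ipo7, Tnpo2, Tnpo3, Xpo1, Xpo6 and Xpot, and the nucleoporins Nup205, Nup210l and Nup62cl. These ranges, not tested, include the H3K18R libraries and those labelled WT, in which Nup37 was at 22.1 to 61.4 CPM and Xpo1 at 326 to 669 CPM.

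A list of 26 other genes of the pathway split in the same comparisons. In G&N embryos 5 rose and 4 fell, beside the 8.18% and 5.47% of all genes. Ranbp2, the large Ran-binding nucleoporin of the cytoplasmic filaments, rose from 14.8 and 14.4 CPM to 111 and 139 CPM (3.03, adjusted p = 0.00803), and Tpr, the core of the basket, rose from 108 and 108 CPM to 362 and 370 CPM (1.68, adjusted p = 0.0158). Also up were Phax, which takes part in snRNA export (1.94), Ahctf1, which seats new pores on chromatin (1.44), and the mRNA export cofactor Nxt1 (1.36). Down were the mRNA export genes Pcid2 (-2.67), Eny2 (-1.74) and Ddx19a (-1.81) and the Y complex gene Sec13 (-2.43). In G&N-L embryos 3 rose (Ranbp2, 1.49, Nxt2, 1.09, and Rangap1, at 0 counts in both early libraries) and 4 fell (Eny2, -2.04, Sec13, -1.60, Pcid2, -2.14, and Mcm3ap, -1.96), beside the 5.97% and 5.87% of all genes. Ran had log2 fold changes of 0.31 and -0.09, and Cse1l, which returns importin alpha to the cytoplasm, of -0.07 and -0.29, and neither passed.

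Promoter sequence was taken from the RefSeq table on GRCm38.p6, another build than the mm39 of the counts. Of the 49 genes 39 matched, with 46 windows of 300 bases (250 upstream and 50 downstream of a start). The windows of these genes were GC-rich, with a median of 64.2% against 52.7% over 32851 windows of all genes. Read on both strands, GGGCGG was in 63% of the windows against 35.7% of all, CCAAT in 50% against 37.4%, CACGTG in 15.2% against 7.15% and CCGGAAGT in 13% against 3.89%. The palindrome bound by NRF1 was in 8.7% against 0.971%, AAGATGGC in 8.7% against 2.75%, TGACGTCA in 4.35% against 1.79% and TATAAA in 8.7% against 13.6%. No searched motif lies within another, several genes have more than 1 window, and a match is a description of letters only. The 250 bases upstream of 2 genes that rose and 2 with lower late levels are shown 5′ to 3′ on the gene's strand, with searched motifs, on either strand, in capitals.
Nup62cl (rose, chrX:140062569-140062818, minus strand): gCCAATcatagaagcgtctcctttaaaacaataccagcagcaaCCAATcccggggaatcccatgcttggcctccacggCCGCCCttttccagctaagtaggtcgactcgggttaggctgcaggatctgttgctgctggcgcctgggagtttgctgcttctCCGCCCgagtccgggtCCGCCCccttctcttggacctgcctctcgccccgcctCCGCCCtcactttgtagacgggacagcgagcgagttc
Xpo1 (rose, chr11:23255791-23256040, plus strand): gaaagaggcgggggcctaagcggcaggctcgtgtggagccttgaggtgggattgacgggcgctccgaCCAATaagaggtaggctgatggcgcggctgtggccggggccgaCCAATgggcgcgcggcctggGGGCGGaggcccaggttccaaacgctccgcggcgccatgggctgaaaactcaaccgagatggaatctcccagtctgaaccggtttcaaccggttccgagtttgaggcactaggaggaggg
Nup37 (fell, chr10:88146742-88146991, plus strand): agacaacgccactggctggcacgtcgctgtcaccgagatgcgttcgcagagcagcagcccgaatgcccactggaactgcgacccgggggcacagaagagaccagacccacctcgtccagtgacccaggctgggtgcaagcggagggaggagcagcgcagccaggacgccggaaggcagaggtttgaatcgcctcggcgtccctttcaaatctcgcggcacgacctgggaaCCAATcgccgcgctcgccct
Kpna7 (lower in late libraries, chr5:145009637-145009886, minus strand): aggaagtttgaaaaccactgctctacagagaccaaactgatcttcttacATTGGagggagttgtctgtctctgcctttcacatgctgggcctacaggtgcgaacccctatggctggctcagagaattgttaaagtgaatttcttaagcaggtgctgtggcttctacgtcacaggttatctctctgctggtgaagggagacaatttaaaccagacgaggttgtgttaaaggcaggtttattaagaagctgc
Upstream of Nup62cl there were 4 matches of GGGCGG and 2 of CCAAT, and upstream of Xpo1 1 and 2. The windows of Nup37 and Kpna7 had 1 match of CCAAT and none of GGGCGG, but Nup88 and Rae1, which also fell, had GGGCGG in theirs, and Tnpo3, which rose, did not, so the 4 shown are examples only.

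The importin alpha genes held different shares in the 7 groups. Kpna7, a form made by the oocyte, was at 549, 266, 285 and 279 CPM in the 4 early libraries, at 158 and 197 CPM in late G&N and at 194 and 176 CPM in late G&N-L libraries. Late libraries were below early ones in each medium, but neither difference passed, at -1.24 ± 0.35 (adjusted p = 0.0681) and -0.67 ± 0.16 (adjusted p = 0.0578). DESeq2 gave adjusted p-values of 0.0116 and 0.00269 for the same differences. Late Lac-CoA libraries had 152 and 87.4 CPM, H3K18R libraries 20.6 and 112 CPM, and the libraries labelled WT had the lowest level, 18.4 and 14.3 CPM.

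As a share of the summed importin alpha RPKM of a library, Kpna7 made up 14.9 to 26.2% in early libraries, 9.48 to 14.5% in late G&N and G&N-L libraries, 5.29 and 9.64% in Lac-CoA, 1.01 and 6.94% in H3K18R, and 0.678 and 0.839% in the libraries labelled WT. Kpna2 made up 47.3 to 54.1% early, 60.2 and 66.3% in late G&N, 53.8 and 55.6% in late G&N-L, 66 and 69.3% in Lac-CoA, 69.6 and 84.1% in H3K18R, and 85 and 86.7% in the libraries labelled WT. For Kpna2 the late G&N-L libraries lay nearest to the early range and those labelled WT farthest from it. Kpna3 gave 26.2 to 35.1% early and 8.42 and 10.8% in the libraries labelled WT. Kpna1 went from 0 to 0.044% early to 1.05 to 3.5% in late libraries, and Kpna4 and Kpna6 gave at most 0.334 and 0.784% in any library. Shares of one sum move together, so these values were not tested. The Kpna7 locus (chromosome 5, 144920329 to 145020840, minus strand, mm39) overlaps Arpc1a on the other strand, and the strand setting of the counting is not given in the sources used here.

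**Figure D3:**
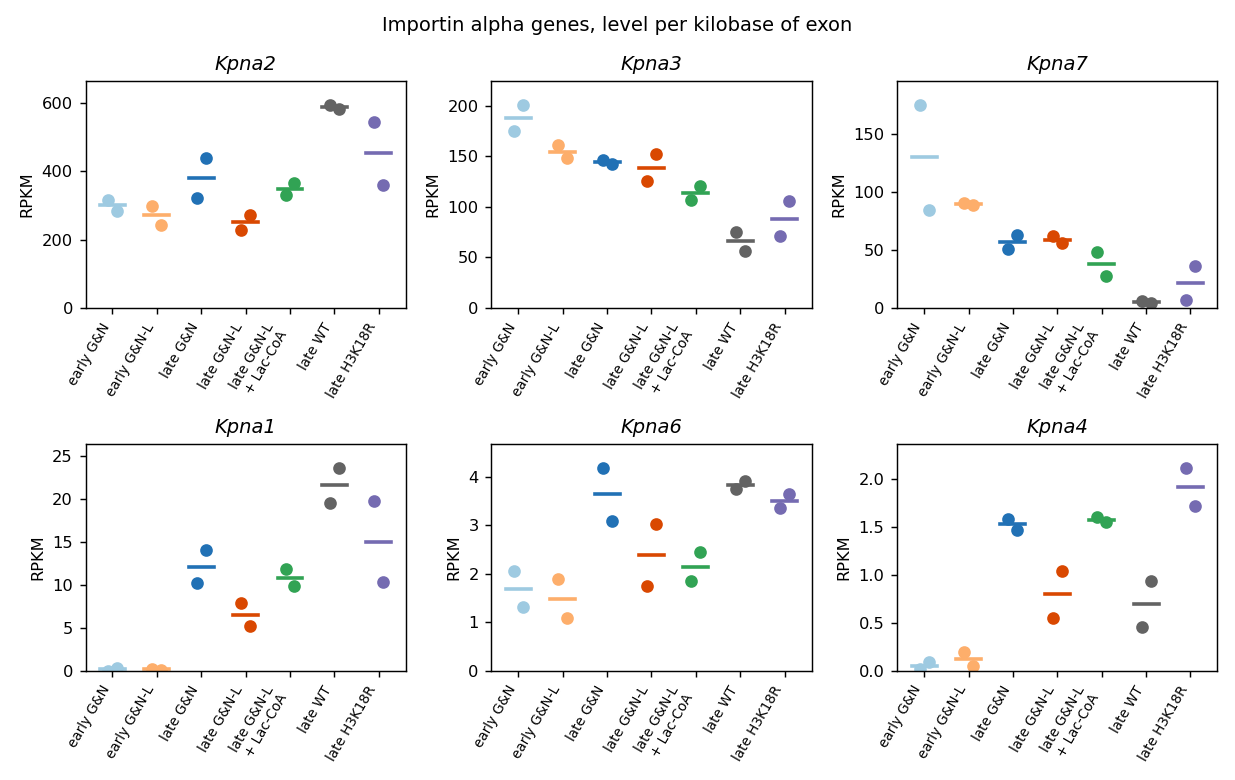
RPKM of the 6 importin alpha genes in the 7 groups, each point 1 library, the bar the mean of 2 libraries, and each panel with its own axis from 0. Kpna7 is lowest in the libraries labelled WT, Kpna2 is highest there, and Kpna1 and Kpna4 are near 0 in early libraries.

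Lactate removal at the late 2-cell stage was compared in late G&N-L against late G&N embryos, to ask which genes depend on lactate when the genome is activated. Receptors such as Ipo4, Ipo5 and Xpo1 and nucleoporins such as Nup43 and Nup62cl had lower values in both lactate-free libraries, but by edgeR 0 of the 49 genes passed at an adjusted p under 0.05, and 0% of the 19481 genes tested did. DESeq2, the tool the authors used, called 4 of the 49, all lower, beside 3.19% of all genes lower and 1.61% higher. They were Nup43, Ipo4, Ipo5 and Nup62cl. Under edgeR 13 had an unadjusted p under 0.05, beside 12% of all genes. The looser criterion gave 11 lower and 2 higher, beside 7.63% and 4.23% of all genes. The median over the 49 was -0.34 beside -0.02 over all genes tested, with -0.55 over the receptors and -0.21 over the nucleoporins. With any 1 library left out the median of the 49 lay between -0.24 and -0.15. Both G&N-L libraries were below both G&N libraries for 20 of the 49 and above them for 5, where 24.9% and 18.6% of all genes were.

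The smallest p-value was that of Nup43, a propeller subunit of the Y complex. It was at 121 and 166 CPM in late G&N and at 36.1 and 62.1 CPM in late G&N-L libraries, a log2 fold change of -1.50 ± 0.34 (adjusted p = 0.317, and 0.00261 by DESeq2). In G&N-L embryos the gene also fell over the stage, from 121 and 136 CPM (-1.46 ± 0.31, adjusted p = 0.0457), while in G&N embryos it went from 92.2 and 75.9 CPM to the late values above (0.71, adjusted p = 0.136). The lactate difference was 0.74 early (adjusted p = 1) and -1.50 late. Their difference, fitted over both stages, was -2.21 ± 0.43, with an adjusted p of 0.5 by edgeR, 0.000813 by DESeq2, and 0.154 to 0.475 with 1 library left out. Nup43 overlaps Pcmt1 on the other strand.

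Of the import receptors, Ipo4, which carries histones among other cargo, was at 7.99 and 6.73 CPM with lactate and at 1.25 and 0.548 CPM without it, the lowest ratio among the 49 (-2.98 ± 0.84, adjusted p = 0.332). Ipo5, a carrier of histones and ribosomal proteins, was at 76.4 and 110 CPM with and at 40.6 and 45.4 CPM without lactate (-1.06 ± 0.27, adjusted p = 0.324). Tnpo3 was at 29.2 and 32.5 CPM against 12.5 and 16.9 CPM (-1.02 ± 0.35, adjusted p = 0.349). None of these 3 overlapped between the groups. The exportin Xpo1 was at 234 and 290 CPM with and at 137 and 160 CPM without lactate (-0.77 ± 0.21, adjusted p = 0.332). For importin alpha, Kpna1 (-0.83, adjusted p = 0.365) and Kpna2 (-0.55, adjusted p = 0.367) were lower without lactate, at 99 and 64.8 and at 807 and 957 CPM. Kpna7 had a log2 fold change of 0.11 (95% interval -0.41 to 0.63), and Kpnb1 had -0.84 with an interval of -1.96 to 0.28.

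Among nucleoporins, Nup62cl was at 126 and 263 CPM with and at 78.9 and 50.2 CPM without lactate (-1.53 ± 0.42, adjusted p = 0.332). Nup93 was at 18.1 and 25.5 CPM against 7.9 and 4.12 CPM (-1.80 ± 0.52, adjusted p = 0.332). The membrane nucleoporin Ndc1 was at 30.2 and 29.9 CPM against 14.8 and 15.7 CPM (-0.93 ± 0.33, adjusted p = 0.358). Rae1 went the other way, at 34.6 and 23.1 CPM with and 58.1 and 51 CPM without lactate (0.96 ± 0.34, adjusted p = 0.352), as did Nup37 (0.58, adjusted p = 0.37), at 77.1 and 77.4 CPM with and 107 and 116 CPM without. Nup107 of the Y complex had -0.88 (adjusted p = 0.394). Maternal oocyte transcripts summed higher without lactate, to 29750 and 33650 CPM against 25920 and 26570 CPM, and so did the 2-cell transcripts, to 3017 and 3443 CPM against 2344 and 2493 CPM. Their part in these differences was not tested. In the list of other transport genes 0 passed and 9 had an unadjusted p under 0.05, with Ranbp2 at -1.47 (adjusted p = 0.311), Tpr at -0.96 (adjusted p = 0.317), Ran at -0.53 (adjusted p = 0.382) and Cse1l at -0.26 (adjusted p = 0.916).

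**Figure D4:**
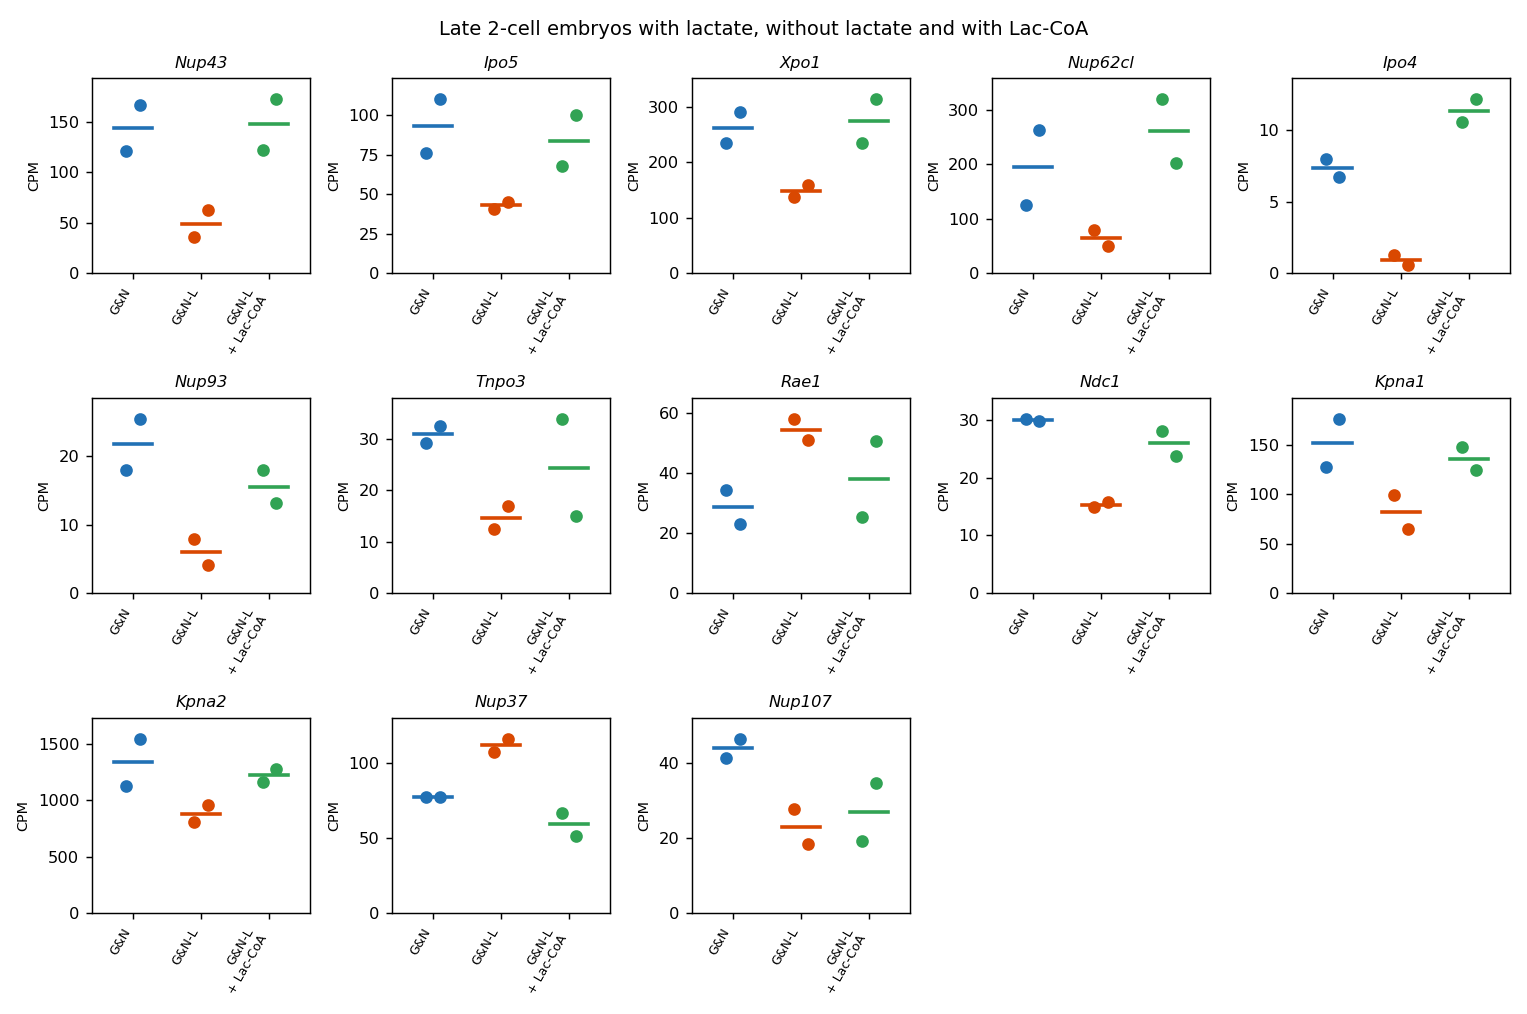
CPM of the 13 genes past the looser criterion in late G&N, G&N-L and G&N-L + Lac-CoA libraries, ordered by p, each point 1 library, the bar the mean of 2 libraries, and each panel with its own axis from 0. In 11 panels the G&N-L points are below the G&N points, with Rae1 and Nup37 the reverse.

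Embryos injected with Lac-CoA were compared with the lactate-free embryos to ask which values differed. No injection of the G&N or G&N-L embryos is described in the sources used here. The injection itself and lactyl-CoA therefore cannot be told apart, here or in the positions given below. By edgeR 0 of the 49 genes passed (0% of 19610 genes), with 9 at an unadjusted p under 0.05 beside 13.3%, and DESeq2 called 4 higher (Ipo4, Nup43, Nup62cl and Xpo1) and 1 lower (Nup37), beside 3.5% and 2.69% of all genes. The looser criterion gave 5 higher and 2 lower, beside 6.89% and 6.29% of all genes, and 16 and 14 did not overlap upwards and downwards, beside 24.8% and 22%. The median of the 49 was 0.20, beside -0.01 over all genes, and -0.16 with Lac-CoA replicate 2 left out. Both comparisons used the late G&N-L libraries, so a low G&N-L value enters both. Maternal oocyte transcripts summed to 22290 and 25830 CPM in Lac-CoA against 29750 and 33650 CPM in G&N-L libraries, and the 2-cell transcripts to 4135 and 4205 CPM against 3017 and 3443 CPM, and their part in these differences was not tested.

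Ipo4 was at 10.6 and 12.1 CPM in Lac-CoA libraries, above both groups (3.60 ± 0.76 against G&N-L, adjusted p = 0.294). Nup62cl was at 319 and 202 CPM (1.96 ± 0.36, adjusted p = 0.294). Nup43 was at 122 and 172 CPM (1.54 ± 0.34, adjusted p = 0.294), where late G&N had 121 and 166 CPM. Xpo1, at 235 and 313 CPM (0.83, adjusted p = 0.297), and Ipo5, at 68 and 99.9 CPM (0.91, adjusted p = 0.305), were again above both G&N-L libraries. Nup37, at 66.5 and 51.4 CPM (-0.97 ± 0.24, adjusted p = 0.294), was below both G&N and G&N-L. Further values were Nup54 at -0.88 (adjusted p = 0.347), Nup153 at -0.47 (adjusted p = 0.326), Kpna2 at 0.42 (adjusted p = 0.345) and Kpna1 at 0.68 (adjusted p = 0.402). Kpna7 (-0.67, adjusted p = 0.456) and Kpnb1 (0.53, adjusted p = 0.773) did not pass.

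Both G&N-L libraries were lower than all 4 G&N and Lac-CoA libraries for 12 of the 49 genes: Ipo4, Ipo5, Kpna1, Kpna2, Kpna4, Ndc1, Nup43, Nup62cl, Nup93, Seh1l, Tnpo2 and Xpo1. For 4 genes they were higher than all 4, Aaas, Nup214, Nup37 and Rae1, and for 33 neither held. Of 21433 genes, 12.5% were lower in this way and 9.21% higher. Of the 12, 7 were receptors, and these counts were not tested. Ranbp2 of the other transport genes also had its lowest late values without lactate, with 111 and 139, 40.1 and 47, and 102 and 104 CPM in late G&N, G&N-L and Lac-CoA libraries (1.19 for Lac-CoA against G&N-L, adjusted p = 0.294). In the same comparison Ran had 0.30 (adjusted p = 0.547), Cse1l 0.55 (adjusted p = 0.661) and Tpr 0.42 (adjusted p = 0.487).

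At the early 2-cell stage no difference with lactate passed. Of the 47 tested, 0 passed by edgeR (0% of 17343 genes) and 0 by DESeq2 (0.127% of genes higher and 0.0923% lower), and 2 had an unadjusted p under 0.05, beside 4.52%. The looser criterion gave 1 higher and 1 lower, beside 1.82% and 2.69%, and 3 and 13 did not overlap upwards and downwards, beside 11.4% and 21.3%. Nup43 was at 92.2 and 75.9 CPM with and at 121 and 136 CPM without lactate (0.74 ± 0.22, adjusted p = 1). Nup210 had 22 and 34 counts with lactate and 0 and 0 without, at least 11.7-fold lower per library total with the floor of 3 counts set over the group. This bound does not cover the spread between libraries, and the late G&N libraries had 0 and 44 counts of this gene. Nup210l, not tested for its low counts, had 46 and 4 counts against 1 and 2, with 46 of the counts in early G&N replicate 1. Per library total this was a ratio of 10.4 (95% exact interval 3.36 to 52.2). That interval covers counting error only and not the spread between libraries. The median of the genes tested was -0.03, beside -0.01 over all genes. Further values by p were Nup98 at 0.61, Nup93 at -0.47, Nup188 at -0.82, Ipo7 at -1.28, Nup85 at -0.39, Nup88 at 0.30, Nup62 at -0.35 and Nup214 at -0.25, all with an adjusted p of 1. Of the other transport genes Ranbp2 had 0.14, Ran -0.05, Tpr 0.05 and Cse1l 0.03, and 0 of the 26 passed. Kpna7 had a log2 fold change of -0.38 (95% interval -1.13 to 0.38), Kpna2 of -0.03 (-0.45 to 0.39) and Kpnb1 of 0.15 (-0.84 to 1.14).

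Whether the lactate difference differed between the stages was tested over the 8 G&N and G&N-L libraries. By edgeR 0 of the 49 passed (0% of 22287 genes), with 4 at an unadjusted p under 0.05, beside 7.55%, and by the looser criterion 1 was higher and 3 lower, beside 3.57% and 3.98%. After Nup43 these were Rae1 (1.20, adjusted p = 0.639), Nup93 (-1.30, adjusted p = 0.65) and Xpo1 (-1.22, adjusted p = 0.65). DESeq2 called 1, Nup43, lower, beside 0.713% of genes lower and 0.359% higher. Next by p came Nup37 (0.56), Nup214 (0.55), Ipo4 (-3.40), Ndc1 (-1.15) and Aaas (1.32), with adjusted p-values of 0.658 to 0.698, and Nup210, whose early G&N-L counts were 0, is given no fold. Ranbp2 (-1.58), Tpr (-0.97), Ran (-0.45) and Cse1l (-0.26) of the other list did not pass either. Kpna7 (0.52), Kpna2 (-0.49) and Kpnb1 (-0.94) had adjusted p-values of 0.72 to 0.805.

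H3K18R embryos were compared with the libraries labelled WT, to ask what a histone H3 that cannot be lactylated at one residue does to these genes. The label WT was not borne out by H3c1 reads, as given above, so each direction here is against libraries of that label. By edgeR 0 of the 49 passed, beside 0.00565% of 17704 genes, 3 had an unadjusted p under 0.05, beside 6.44%, and DESeq2 called 0, beside 0.503% of genes higher and 0.175% lower. The looser criterion gave 2 higher and 1 lower, beside 3.77% and 2.67%, and 7 and 14 did not overlap upwards and downwards, beside 19.5% either way. Kpna4 was at 5.91 and 12.2 CPM in the libraries labelled WT and at 27.6 and 22.5 CPM in H3K18R libraries (1.47 ± 0.53, adjusted p = 0.734). Nup160 was at 124 and 146 against 87.2 and 68.3 CPM (-0.79 ± 0.29, adjusted p = 0.746). Kpna7 was at 18.4 and 14.3 against 20.6 and 112 CPM (2.03 ± 0.80, adjusted p = 0.769), and the difference rested on H3K18R replicate 2, for the log2 fold change was 0.34 without it. In that replicate some other genes, Ipo11 and Nup37 among them, were also nearer to the late G&N values. Nup153, at 106 and 86.1 CPM in H3K18R, was nearer to them in replicate 1. Ipo11 was at 61.4 and 12.1 CPM in H3K18R against 75.2 and 72.3 CPM in the libraries labelled WT, and Nup37 at 22.1 and 61.4 CPM against 31.8 and 26.8 CPM.

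The remaining values named by p in H3K18R were Nup85 (-1.55), Ipo5 (-0.68), Nup133 (0.78), Xpo1 (-0.54), Nup188 (0.97), Nup153 (0.52) and Ipo9 (-0.43), with adjusted p-values of 0.83 to 0.895. Ran (-0.82), Cse1l (-0.67), Tpr (-0.30) and Ranbp2 (-0.29) did not pass, and 0 of the 26 other transport genes did. Kpna2 was at 2087 and 2054 CPM in the libraries labelled WT and at 1917 and 1265 CPM in H3K18R libraries (-0.38, adjusted p = 0.911), and Kpnb1 had -0.41 (adjusted p = 0.923). The median was -0.16, beside 0.03 over all genes, and ran from -0.30 without H3K18R replicate 1 to 0.02 without replicate 2 of the libraries labelled WT, so its sign rested on the libraries used. Of the genes lower without lactate by the looser criterion, Nup62cl was at 359 and 315 CPM in the libraries labelled WT and 232 and 298 CPM in H3K18R (-0.34, adjusted p = 0.909). Both H3K18R libraries were lower than both labelled WT for Nup62cl, Ipo4, Ipo5, Kpna2, Tnpo3 and Xpo1, where 19.5% of all genes tested were lower in this way. These genes were picked for low values without lactate, and the share among all genes so picked was not taken. The groups overlapped for Kpna1, Ndc1, Nup107, Nup43 and Nup93, and these positions were not tested.

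The libraries labelled WT stood apart from the late G&N libraries in several of these genes, and this comparison was added after the levels were seen. The labels give inhibitor and NMN for G&N and no culture for the libraries labelled WT, and injection, culture and any other difference between the groups cannot be told apart. The same libraries labelled WT entered the comparison with H3K18R. Maternal oocyte transcripts summed to 17800 and 19210 CPM in the libraries labelled WT and to 25920 and 26570 CPM in late G&N, and 2-cell transcripts to 1480 to 1875 and 2344 to 2493 CPM, and their part in the differences was not tested. In all, 6 of the 49 passed, 3 higher and 3 lower under the label WT, beside 1.94% and 2.68% of 18986 genes. At an unadjusted p under 0.05 there were 20, beside 28%, by the looser criterion 12 higher and 8 lower, beside 12.4% and 15.6%, and 21 and 17 did not overlap upwards and downwards, beside 28.2% and 32.4%. Kpna7 was at 158 and 197 CPM in late G&N and at 18.4 and 14.3 CPM under the label WT, for a log2 fold change of -3.49 ± 0.27 (adjusted p = 0.0413). Nup153, which binds import receptors at the basket, was at 244 and 316 against 50.1 and 84 CPM (-2.10 ± 0.32, adjusted p = 0.0418). Nup37 was at 77.1 and 77.4 against 31.8 and 26.8 CPM (-1.45 ± 0.26, adjusted p = 0.0476).

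Higher in the libraries labelled WT were Ipo11, an importin for ubiquitin-conjugating enzymes, at 75.2 and 72.3 against 14.3 and 15.7 CPM (2.25 ± 0.26, adjusted p = 0.0413), Xpo1 at 669 and 629 against 234 and 290 CPM (1.27 ± 0.19, adjusted p = 0.0413), and Nup43 at 357 and 333 against 121 and 166 CPM (1.22 ± 0.22, adjusted p = 0.0494). The groups did not overlap for any of the 6. Kpna3 (-1.17, adjusted p = 0.0512), Ipo9 (1.23, adjusted p = 0.0698), Nup205 (1.09, adjusted p = 0.094) and Kpna1 (0.80, adjusted p = 0.105) came next, and Kpna2 (0.59, adjusted p = 0.127) and Kpnb1 (0.47, adjusted p = 0.58) did not pass. With 1 library left out fewer of these genes passed, and in most of these fits no gene of the table did. The 6 genes kept their direction, with Kpna7 at -3.67 to -3.25 and Nup43 at 1.04 to 1.53. DESeq2 called 17, 12 higher and 5 lower, beside 10.6% and 11.2% of all genes. Of the other transport genes, Hikeshi, the carrier of Hsp70 proteins, was higher in them (2.01, adjusted p = 0.0413), while Ran (0.90, adjusted p = 0.0688), Ranbp2 (0.85, adjusted p = 0.0755), Cse1l (0.94, adjusted p = 0.102) and Tpr (0.13, adjusted p = 0.719) did not pass.

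**Figure D5:**
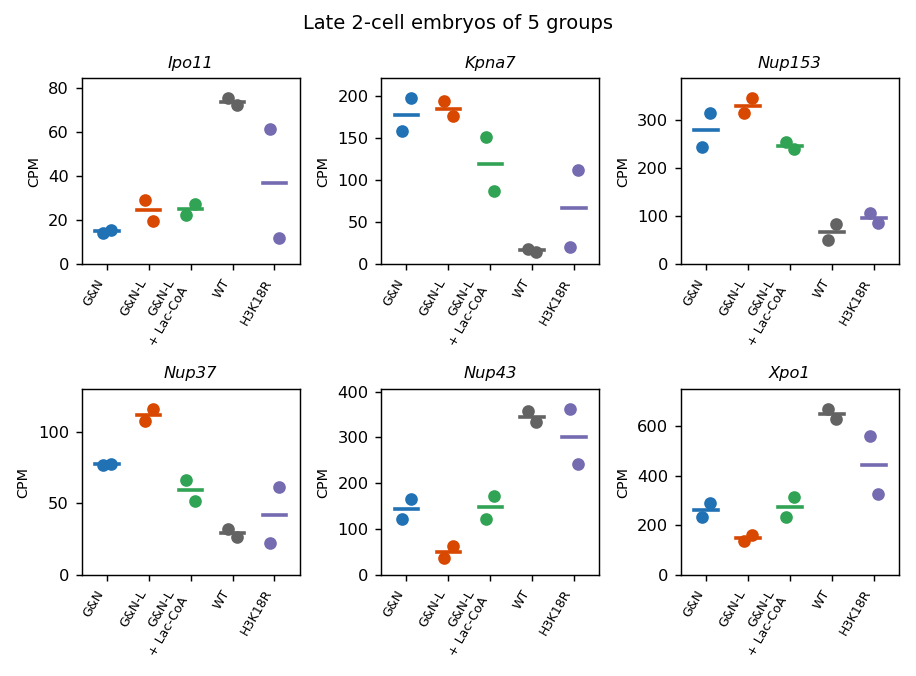
CPM in the 5 late groups of the 6 genes that passed between the libraries labelled WT and late G&N, each point 1 library, the bar the mean of 2 libraries, and each panel with its own axis from 0. Points of the libraries labelled WT are above or below both G&N points in every panel, and H3K18R replicate 2 sits nearer the G&N points than replicate 1 for Ipo11, Kpna7, Nup37, Nup43 and Xpo1.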

How the data were processed

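RNA-seq of 14 libraries of mouse 2-cell embryos, 2 in each of 7 groups, was analysed. Per the paper and the submitters' processing notes, the authors used FastQC for read quality, Trim Galore for adapters, HISAT2 for alignment (build mm39) and featureCounts for gene totals. What they deposited is raw counts, not normalized. Amplified cDNA without molecular identifiers was counted, so reads are not independent molecules, and versions, strand setting and the treatment of multi-mapping reads are not given in the sources used here. The authors tested with DESeq2. The table held 0 columns of other samples, 3 replicates are stated in the study and 2 libraries per group were analysed.

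Counts were tested in R 4.3.3 with edgeR 4.0.16 (filterByExpr, TMM, two-sided quasi-likelihood test, Benjamini-Hochberg adjustment over all genes tested, threshold 0.05), each comparison on its own libraries. Values after ± are standard errors, and the looser criterion, that of the volcano plots of the study, required both an unadjusted p under 0.05 and a change beyond 0.5 on the log2 scale. Fitted fold changes used a prior count of 0.125. Levels are CPM on TMM-scaled library sizes of all 14 libraries (factors 0.826 to 1.14) and RPKM per union exon length of the annotation on the same build. The marker sums and the median levels per library are CPM on plain library totals, without these factors. The step was tested on simulated data. Comparisons that share libraries are not independent: late G&N entered 3, late G&N-L 3, the libraries labelled WT 2 and each early group 2, besides the interaction. Genes named in each comparison are those that passed, or the 10 with the smallest p where fewer than 10 passed, with Kpna2, Kpna7 and Kpnb1 always, and from the other transport genes those that passed with Ran, Cse1l, Tpr and Ranbp2. The genes, lists and rules were chosen with earlier results of these data known. Replicates differed by more than counting noise (chi-square per degree of freedom 47.8 to 195) and all were kept. Same-numbered libraries did not deviate together (correlations of -0.04 to 0.0071), so they were not paired. Alternatives were DESeq2 1.42.0, its size factors, library totals, other filters on low counts, 1 fit of all libraries, a replicate block and each library left out. Without the strand setting, genes that overlap another gene on the other strand, such as Kpna7 and Nup43, are uncertain.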

Additional observations from a re-analysis of the deposited data

How the results depend on the processing

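With 2 libraries per group the number of genes that passed moved more than their direction. DESeq2 called 24 of these genes over the stage with lactate and 27 without it, 4 for lactate at the late stage, 5 for Lac-CoA, 17 between the libraries labelled WT and late G&N, a comparison chosen after seeing the data, and 1 for the interaction, where 30.5%, 27.9%, 4.79%, 6.2%, 21.9% and 1.07% of all genes passed. No filter on low counts gave 20 for the stage with lactate, 2 for lactate at the late stage, 1 for H3K18R (Kpna7), 16 for the libraries labelled WT and 1 for the interaction (Nup43), beside 17.3%, 1.1%, 0.288%, 13% and 1.11%, and at least 10 counts in every library gave 19 and 20 for the stage with and without lactate, beside 25.8% and 23.4%. Library totals gave 17 for the stage without lactate and moved the stage medians to 0.75 and 0.70, and there Kpna2 (0.20) and Kpnb1 (0.18) turned sign. With 1 library left out, 0 to 13 passed over the stage with lactate, 5 to 10 without it and 0 to 2 for the libraries labelled WT, and 0 in the other comparisons. In these fits the median ran from -0.16 to 0.22 for Lac-CoA and from -0.30 to 0.02 for H3K18R, Kpna7 from -0.00198 to 0.31 for lactate at the late stage and from -0.73 to 0.11 at the early stage, Kpna2 there from -0.11 to 0.0383, and Kpnb1 from -0.25 to 0.71 there and from -0.27 to 1.05 for Lac-CoA. A fit left with 1 library in a group assumes that it varies like the others. A replicate block gave nearly the main number of calls for the stage with lactate, without it and for the libraries labelled WT, and ended no other call. The cause of these shifts was not tested. Of the single-gene values under the other alternatives, 768 kept direction and side of the threshold, 32 passed where they had not, 12 no longer passed, 2 turned sign and 19, all levels under another scaling, moved by more than the spread between replicates. With 1 library left out, 397 kept both, 65 no longer passed, 1 newly passed and 5 turned sign. Low-count genes such as Nup210, Nup210l, Xpot and Ipo13 are limited by depth.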
